A study of Mus musculus with 14 samples.

Results

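Fully grown mouse oocytes of the germinal vesicle (GV) stage, in which the nuclear envelope of prophase I is still intact, were compared by Zp3-Cre status in the absence of added microRNA. The Zp3-Cre-positive group held 4 arrays and the Zp3-Cre-negative group held 4 arrays, so 8 of the 14 samples of the series were used. Mice of both groups were primed with 5 units of PMSG, a gonadotropin, 48 h ahead of the injection. Oocytes were held in 2 µM milrinone, an inhibitor that keeps them from resuming meiosis. The labels do not state what was injected into the oocytes that received no mimic. Oocytes of both groups carried, at the Rosa26 locus, a myc- and GFP-tagged human AGO2 behind a lox-flanked stop. Cre was driven by the promoter of Zp3, a zona pellucida gene that is active in growing oocytes, so that removal of the stop is limited to the oocyte. Of the 25697 probes on the one-colour Illumina BeadChip, the 13080 with a detection p under 0.05 on at least 4 of the 8 arrays were tested, whatever their difference between the groups. They covered 8730 genes with 1 symbol and 816 probes without one. The other set of the series, with 2 µM miR-15a mimic, had 3 Cre-positive and 3 Cre-negative arrays and 13563 tested probes.

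Argonaute proteins hold a small RNA and use it to find paired transcripts. Argonaute 2 is the mammalian member that cuts a fully paired transcript, and Argonautes also recruit the deadenylation and decay machinery through the Tnrc6 proteins. In mouse oocytes microRNA activity is known to be weak, whereas endogenous siRNAs, which are loaded into AGO2, lower a number of transcripts. The comparison asks which transcripts differ once Cre has switched the transgene on. No group had Cre without the AGO2 transgene, so effects of Cre and of AGO2 cannot be told apart. The labels do not tie samples to separate animals or pools of oocytes, so the p-values reflect no more than the spread among the samples at hand, which may be technical. In RNA of whole samples, fewer oocytes with a transcript and less of it per oocyte cannot be told apart.

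The mean raw signal was 118 to 151 intensity units on Cre-positive arrays and 137 to 145 on Cre-negative arrays. Between 11652 and 13459 probes were detected on Cre-positive arrays, and between 13314 and 13619 on Cre-negative arrays, with means of 12933.5 ± 857 and 13475.75 ± 134 (SD, n = 4 each). The difference of -542.25 probes gave a two-sided exact permutation p of 0.171, where the smallest that 4 against 4 arrays allow is 0.0286. A pair of Cre-positive arrays stood apart from the rest. Cre-positive replicate 1 had the 11652 detected probes, and Cre-positive replicate 4 lay at 28.2 on the first principal component, where the other arrays lay between -7.57 and 2.72. On replicate 4, 18 probes lay more than 1 on the log2 scale above the median of the other arrays and 26 below it, against at most 3 either way on any other array. All 15 oocyte markers on the array were measured, and the log2 of their summed signal was 13.4 to 13.8 on Cre-positive and 13.4 to 13.6 on Cre-negative arrays. Of 24 markers of granulosa and cumulus cells on the array, 7 passed the filter, with a summed log2 signal of 8.08 to 8.40 and 8.08 to 8.32. Among these 7 was Nr5a2, detected on 4 of 4 arrays of each group, with a mean log2 signal of 6.85 in Cre-positive and 6.60 in Cre-negative oocytes by its brightest probe. Wt1 was another, detected on 1 of 4 Cre-positive and 4 of 4 Cre-negative arrays. The granulosa genes Foxl2, Amh, Amhr2, Star and Hsd3b1 did not pass the filter. Theca and stroma gave 1 of 11 markers (Acta2), and blood and immune cells gave 1 of 7 (Laptm5).

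Differences between the groups were small for most probes. Of the 13080 probes, 5 (0.0382%) passed an adjusted p under 0.05, in limma with Benjamini-Hochberg adjustment over all probes. Higher in Cre-positive oocytes were 2 (0.0153%), the probes of Mt1 and Ago2, and lower were 3 (0.0229%), both probes of Vamp3 and the probe of Plin3. An unadjusted p under 0.05 was given by 623 probes (4.76%), 268 higher (2.05%) and 355 lower (2.71%). The median log2 difference was 0.00, with quartiles of -0.09 and 0.08. Taking the brightest probe of each gene, 4 of 9546 genes and unnamed probes (0.0419%) passed, and 451 (4.72%) had an unadjusted p under 0.05. More than 1 on the log2 scale separated the groups in 2 higher and 3 lower probes, which were the 5 that passed, and more than 0.5 in 13 higher and 17 lower probes. With the median SE of 0.116, a log2 difference of 0.66, or 1.58-fold, would have been needed to pass, and the 95% interval of such a probe reached 0.24 to either side. At the 5th and the 95th percentile of the SE the difference needed was 0.58 and 0.87.

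**Figure D1:**
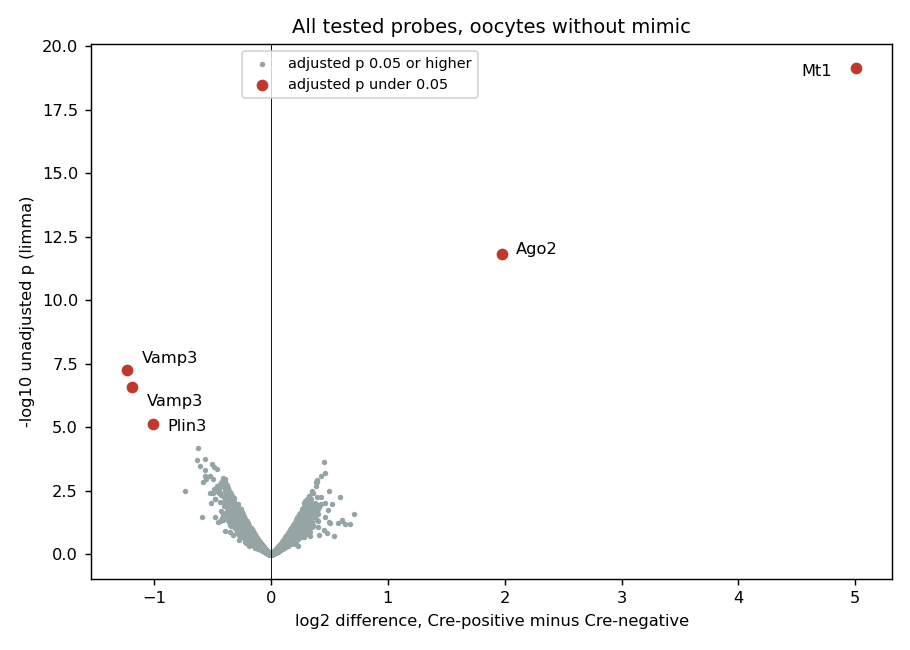
Each point is 1 of the 13080 tested probes; the x axis gives the log2 difference, Cre-positive minus Cre-negative, and the y axis the -log10 of the unadjusted limma p. Mt1 (5.01) and Ago2 (1.97) lie far to the right, both Vamp3 probes (-1.23 and -1.19) and Plin3 (-1.01) to the left, and the other probes form 1 cloud around 0.

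Mt1 encodes metallothionein 1, a small cysteine-rich protein that binds zinc, copper and cadmium. Metallothionein genes are switched on by the metal-sensing factor MTF1, which binds metal response elements in their promoters, and also by glucocorticoids and other stress signals. The Mt1 probe (ILMN_2596522) gave log2 signals of 9.37, 9.17, 9.08 and 9.24 on the Cre-positive arrays, against 4.15, 4.36, 4.13 and 4.18 on the Cre-negative arrays. All 4 Cre-positive values lay close together and far above every Cre-negative value. The probe was detected on 4 of 4 Cre-positive and 1 of 4 Cre-negative arrays, so that its Cre-negative level is at or near the detection floor of 4.35 to 4.36 on those arrays. The fitted log2 difference was 5.01 ± 0.106 (SE, n = 4 and 4, limma adjusted p = 9.5e-16). Set against the floor after background correction with an offset of 16, the Mt1 signal of Cre-positive oocytes was at least 29.0-fold higher. This bound holds for that setting only. The fitted log2 difference also depends on the background step, being 3.07 without background correction and 7.44 with an offset of 1. Whether the probe reads RNA of the mouse Mt1 gene alone was not tested.

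Mt1, its neighbour Mt2 and the zinc exporter gene Slc30a1 are all known MTF1 targets. Of these Mt1 passed, Slc30a1 did not, and Mt2, detected on no array, was not tested. Their promoters are shown as RefSeq windows of the build GRCm38.p6. The windows run from 250 bases before to 50 bases after the annotated start, read on the plus strand. Mt1 lies at chr8:94178839-94179138, Mt2 at chr8:94172368-94172667 and Slc30a1 at chr1:191906531-191906830. Capitals mark the metal response element core, searched as TGCACNC and TGCGCNC on both strands, where N is any base.
Mt1: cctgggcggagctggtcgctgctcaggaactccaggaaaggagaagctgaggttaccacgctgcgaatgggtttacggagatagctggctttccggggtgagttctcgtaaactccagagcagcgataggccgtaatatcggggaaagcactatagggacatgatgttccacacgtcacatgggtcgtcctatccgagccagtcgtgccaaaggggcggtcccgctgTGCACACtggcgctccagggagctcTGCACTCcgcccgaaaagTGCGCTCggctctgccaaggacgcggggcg
Mt2: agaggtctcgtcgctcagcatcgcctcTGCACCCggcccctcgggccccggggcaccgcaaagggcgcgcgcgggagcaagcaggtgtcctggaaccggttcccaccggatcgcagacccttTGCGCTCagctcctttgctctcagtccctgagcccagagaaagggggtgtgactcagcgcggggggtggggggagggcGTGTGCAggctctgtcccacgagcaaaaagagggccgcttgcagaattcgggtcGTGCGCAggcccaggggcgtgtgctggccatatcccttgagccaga
Slc30a1: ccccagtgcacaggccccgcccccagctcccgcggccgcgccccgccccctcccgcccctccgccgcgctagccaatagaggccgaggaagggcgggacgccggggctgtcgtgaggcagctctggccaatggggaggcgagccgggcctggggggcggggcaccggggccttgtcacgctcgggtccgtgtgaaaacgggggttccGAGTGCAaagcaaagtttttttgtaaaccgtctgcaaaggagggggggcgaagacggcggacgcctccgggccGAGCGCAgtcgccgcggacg
The Mt1 window held 3 cores, all on the plus strand. At least 3 cores were found in 1.97% of the 32851 promoter windows of the same length. The Mt2 window held 4, of which 2 were on each strand, and 0.517% of windows held at least 4. The Slc30a1 window held 2, both on the minus strand, and 7.11% of windows held at least 2. A match of letters is a description of the sequence, and cores outside these windows were not searched.

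Mt2, the metallothionein gene next to Mt1, was not detected on any of the 8 arrays by its probe (ILMN_1219154). Its log2 signals were 4.48, 4.29, 4.36 and 4.31 on Cre-positive arrays, against 4.27, 4.18, 4.28 and 4.21 on Cre-negative arrays. The Cre-positive values lay just above the Cre-negative ones, but as no array detected the probe no fold is given, and how well this probe reports Mt2 was not tested. Mtf1 had 2 probes with log2 differences of -0.17 and -0.10. Slc30a1 gave log2 signals of 6.81, 6.83, 6.62 and 6.74 on Cre-positive arrays, against 6.75, 6.56, 6.69 and 6.66 on Cre-negative arrays, which overlap. Its log2 difference was 0.09 ± 0.10 (SE, limma adjusted p = 0.961). The other metallothionein genes measured, Mt3 and Mt4, stood at -0.03 and -0.13.

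Of 30 listed genes of metallothioneins and zinc transport, 16 were tested, and Mt1 was the only one that passed. The list's median log2 difference was -0.03, where that of all 9546 tested genes and unnamed probes was -0.01. Slc39a10, a zinc importer of the plasma membrane that is abundant in oocytes, had log2 signals of 7.40, 7.54, 7.66 and 7.40 on Cre-positive arrays, against 8.0, 7.73, 7.82 and 7.78 on Cre-negative arrays. Its groups did not overlap, but its log2 difference of -0.33 did not pass (limma adjusted p = 0.863). The vesicular zinc transporter gene Slc30a3 stood at 0.32 with overlapping groups. What raised the Mt1 signal was not tested. Genes of the stress responses listed next did not pass. Among 26 genes of the oxidative stress, heat shock and glucocorticoid responses 0 passed, and the median was 0.02. In this list the heat shock gene Hspb1 stood at -0.31, the superoxide dismutase gene Sod1 at 0.22 and the glucocorticoid-induced Fkbp5 at 0.06. Among 27 genes of the integrated stress and unfolded protein responses 0 passed, with Chac1, an enzyme gene of glutathione breakdown, at -0.27 and the chaperone gene Hspa5 at 0.01.

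**Figure D2:**
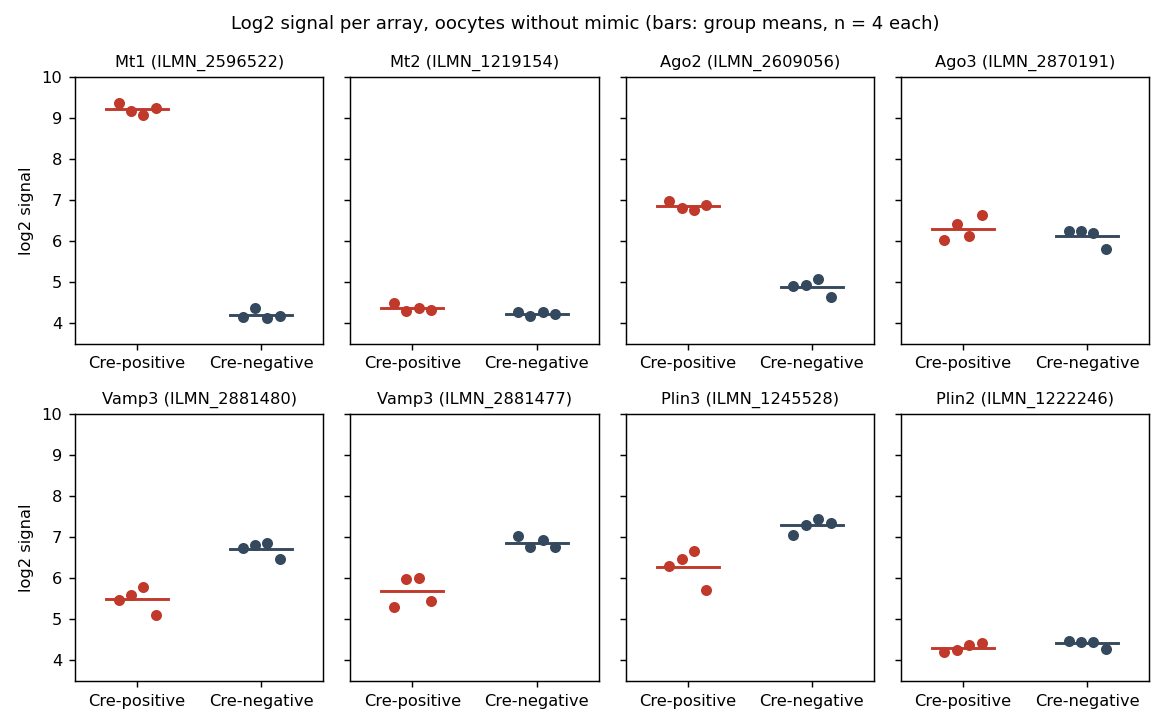
Each point is 1 array, with Cre-positive arrays (red) left of Cre-negative arrays (blue) and bars at the group means (n = 4 each); the y axis is log2 signal after background correction and quantile normalization. Mt1, Ago2, both Vamp3 probes and Plin3 show groups that do not overlap, and among these the Plin3 groups lie closest. Its highest Cre-positive value is 6.67 and its lowest Cre-negative value 7.07. Mt2 and Plin2 lie near the detection floor, and the Ago3 groups overlap.

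Ago2 is the gene whose human form the transgene carries. Its probe (ILMN_2609056) gave log2 signals of 6.98, 6.81, 6.76 and 6.89 on Cre-positive arrays, against 4.91, 4.94, 5.06 and 4.63 on Cre-negative arrays. The probe was detected on all 8 arrays, and its groups lay far apart. Ago2 was 3.93-fold higher in Cre-positive oocytes (log2 1.97 ± 0.113 SE, n = 4 and 4, limma adjusted p = 9.9e-09). The size of this difference too depends on the background step, the log2 difference being 0.96 without background correction and 2.82 with an offset of 1, and Ago2 passed with both. The probe was made for the mouse transcript, and its binding to the human one was not tested. For this and each of the other 4 probes that passed, the two-sided exact permutation p was 0.0286, the smallest possible. Every probe whose groups do not overlap has this p, which held for 375 of 13080 probes (2.87%), so it adds no support for the 5.

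The other Argonaute genes did not pass. Ago3 had 4 tested probes, at log2 differences of 0.18, 0.14, 0.01 and -0.07. The 1 Ago1 probe was not detected on any array. Of the 2 Ago4 probes 1 was detected on 1 Cre-positive and 1 Cre-negative array, and the other on none. Among 18 tested genes of the Argonaute and small-RNA machinery Ago2 alone passed, and the list's median was -0.05. Dicer1, which cuts small RNAs from their precursors, stood at 0.02. The Argonaute partner genes Tnrc6a, Tnrc6b and Tnrc6c stood at 0.03, -0.15 and -0.16. The nuclear export gene Xpo5 stood at -0.18, and the Dicer partner gene Tarbp2 likewise at -0.18, with its Cre-positive values below its Cre-negative ones at that probe and -0.01 by its other probe. Among 26 genes of deadenylation, decapping and decay 0 passed, with a median of -0.03 by the brightest probe of each gene. The range was -0.20 (Cnot6l, a deadenylase active in oocytes, with 0.05 by its other probe) to 0.17 (Cnot8). Of 7 transcripts known to be lowered by endogenous siRNAs in mouse oocytes 0 passed, with a median of 0.01 by the brightest probe of each gene. The range was -0.14 (Kif4, with 0.13 and 0.11 by its other probes) to 0.09 (Ran). Ran was detected on 3 of 4 Cre-positive and 2 of 4 Cre-negative arrays. None of these lists was tested as a set.

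Vamp3 encodes cellubrevin, a SNARE on the vesicles of recycling endosomes that drives their fusion with the plasma membrane. Probe ILMN_2881480 gave log2 signals of 5.49, 5.61, 5.79 and 5.11 on Cre-positive arrays, against 6.74, 6.83, 6.86 and 6.48 on Cre-negative arrays. Probe ILMN_2881477 gave 5.30, 5.98, 6.01 and 5.46 on Cre-positive arrays, against 7.03, 6.77, 6.95 and 6.76 on Cre-negative arrays. With both probes every Cre-positive value lay below every Cre-negative value, and Cre-positive replicates 1 and 4 were the lowest. Vamp3 fell 2.34-fold by the first probe (log2 -1.23 ± 0.136 SE, n = 4 and 4, limma adjusted p = 0.000234). By the second it fell 2.28-fold (log2 -1.19 ± 0.147 SE, limma adjusted p = 0.000874). When no background was subtracted the probes stood at -0.64 and -0.65, and both passed (adjusted p = 0.0122 and 0.0244). Both calls were lost with an offset of 1, at log2 differences of -1.61 and -1.51 (adjusted p = 0.168 and 0.233), and with no filter on dim probes (adjusted p = 0.127 and 0.364). Without Cre-positive replicates 1 and 4 together the log2 differences were -1.03 and -0.88, and both probes passed.

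Vamp3 was the only one of 33 tested genes of the SNARE and vesicle fusion list that passed, and the list's median was -0.01. The other vesicle SNARE genes Vamp1, Vamp4, Vamp7 and Vamp8 stood between -0.07 and 0.18. Snap23, which encodes a plasma membrane partner SNARE, stood at 0.00. Stx6, a SNARE gene of the trans-Golgi network and endosomes, gave log2 signals of 5.26, 5.01, 5.08 and 5.03 on Cre-positive arrays, against 5.46, 5.56, 5.43 and 5.43 on Cre-negative arrays. Its groups did not overlap, but its log2 difference of -0.37 did not pass, and its other probe stood at -0.06.

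Among 33 genes of the recycling endosome and retromer 0 passed, with a median of 0.03. The small GTPase gene Rab11b, a regulator of recycling endosomes, had log2 signals of 6.46, 6.75, 6.85 and 6.21 on Cre-positive arrays, against 7.16, 6.92, 7.0 and 7.40 on Cre-negative arrays. Its log2 difference was -0.55 ± 0.14 (SE, limma adjusted p = 0.62). Rab23, a small GTPase gene of Hedgehog signalling, had 7.08, 7.25, 7.51 and 6.04 on Cre-positive arrays, against 7.77, 7.68, 7.78 and 7.58 on Cre-negative arrays. The groups of both genes did not overlap, and Cre-positive replicate 4 was the lowest array in both. Rab23 stood at -0.73 (limma adjusted p = 0.796). Rab11a, the close relative of Rab11b, stood at 0.03, and the transferrin receptor gene Tfrc, whose protein is a standard cargo of recycling endosomes, at 0.07.

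Plin3 encodes perilipin 3, or TIP47, a coat protein of lipid droplets that also binds mannose 6-phosphate receptors on endosomes. Its probe (ILMN_1245528) gave log2 signals of 6.29, 6.47, 6.67 and 5.72 on Cre-positive arrays, against 7.07, 7.30, 7.46 and 7.36 on Cre-negative arrays. The groups did not overlap, and Cre-positive replicate 4 was the lowest. Plin3 fell 2.01-fold (log2 -1.01 ± 0.160 SE, n = 4 and 4, limma adjusted p = 0.0183). The call depended on single arrays and on the background step. It was lost without Cre-positive replicate 1 or Cre-negative replicate 2, 3 or 4, with adjusted p between 0.0785 and 0.154, without background correction at a log2 difference of -0.63 (adjusted p = 0.215), with an offset of 1 (adjusted p = 0.403) and with no filter on dim probes (adjusted p = 0.497). Without Cre-positive replicate 4 the difference was -0.81 (adjusted p = 0.0123). Plin2, the other perilipin gene measured, was detected on 2 of 4 Cre-positive and 3 of 4 Cre-negative arrays and stood at -0.11. Of 15 tested lipid droplet genes Plin3 alone passed, and the median was -0.05. Abhd5, a coactivator of the droplet lipase encoded by Pnpla2, stood at -0.23, and Pnpla2 at 0.13.

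Below the threshold, the 8 probes with the smallest p in each direction are described, among probes with 1 gene symbol. On the lower side 1 unnamed probe (ILMN_1239422, adjusted p = 0.452) ranked among them and is left out. The lower one with the smallest p was that of Med18, a subunit of the Mediator complex. It gave log2 signals of 8.08, 7.94, 8.37 and 7.96 on Cre-positive arrays, against 8.80, 8.5, 8.81 and 8.71 on Cre-negative arrays, a log2 difference of -0.62 ± 0.12 (SE, limma adjusted p = 0.136). The groups did not overlap for this probe, but the gene's 2 further probes stood at -0.14 and -0.06. Deptor, which encodes an inhibitor of mTOR, had 6.50, 6.67, 6.67 and 6.05 on Cre-positive arrays, against 7.19, 6.90, 7.18 and 7.14 on Cre-negative arrays. Its log2 difference was -0.63 (limma adjusted p = 0.312), while its other probe stood at -0.04. Tstd2 stood at -0.57, the semaphorin gene Sema4b at -0.61, Wdr78 at -0.56 and 6030458C11Rik at -0.49. Cln6, a gene of an endoplasmic reticulum protein, stood at -0.50 with detection on 1 of 4 Cre-positive and 4 of 4 Cre-negative arrays. The receptor tyrosine phosphatase gene Ptpre stood at -0.56 by 1 probe, while its other probes, detected on all 8 arrays, stood at -0.07 and 0.03 with overlapping groups. At the 8 lower probes described every Cre-positive value was below every Cre-negative value, as at 224 of all 13080 probes (1.71%). Choosing probes by the smallest p favours such a separation.

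Among higher probes that did not pass, B3gnt2, which encodes an enzyme that extends glycan chains, had the smallest p. It gave 5.51, 5.57, 5.58 and 5.55 on Cre-positive arrays, against 5.13, 5.20, 5.01 and 5.06 on Cre-negative arrays, with a log2 difference of 0.45 ± 0.10 (SE, limma adjusted p = 0.336). Tfec, a transcription factor gene of the Mitf family, stood at 0.47 and was detected on 4 of 4 Cre-positive and 1 of 4 Cre-negative arrays. Its log2 signals were 4.99, 4.65, 4.77 and 4.57 in the Cre-positive group, against 4.24, 4.29, 4.39 and 4.19 in the Cre-negative group. The RNA-binding gene Rbm12 stood at 0.43, while its 3 further probes stood at 0.09. Also among the 8 were the DNA primase subunit gene Prim2 (0.40, with 0.23 by its other probe), the mitochondrial acyl-CoA synthetase gene Acsf3 (0.39), Clba1 (0.39), the receptor gene Gpr35 (0.39, with -0.02 and -0.12 by its other probes) and the oocyte gene Nlrp4a (0.35). The adjusted p of all 16 probes lay between 0.136 and 0.796.

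**Figure D3:**
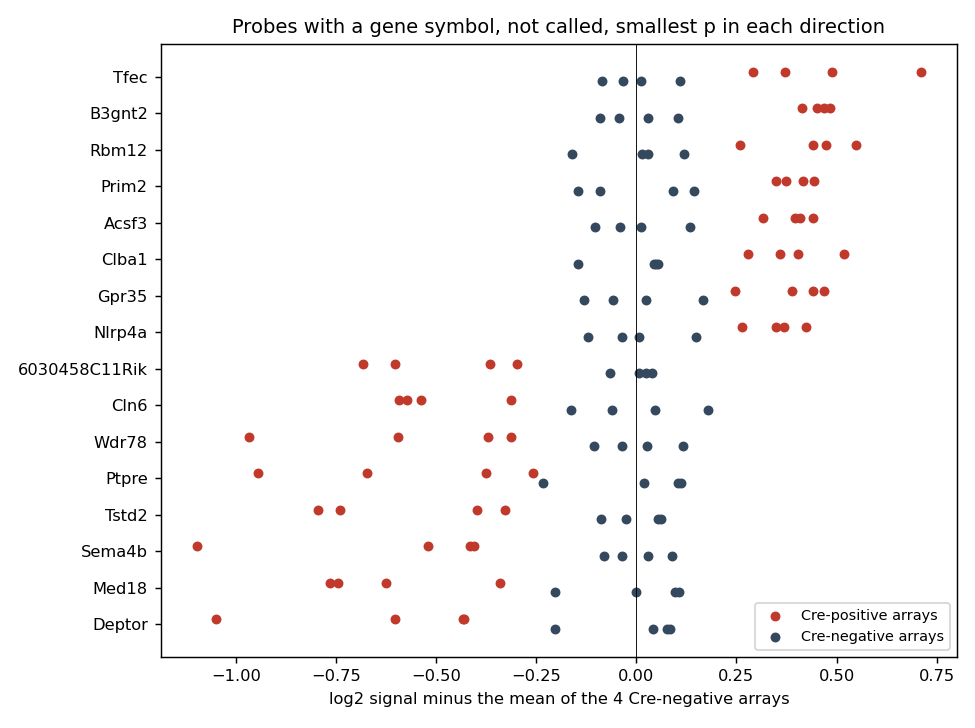
For the 8 lower and 8 higher probes with the smallest p among those with 1 gene symbol that did not pass, each point is 1 array, with Cre-positive arrays (red) drawn above Cre-negative arrays (blue); the x axis is the log2 signal minus the mean of the 4 Cre-negative arrays. The red and blue points of each probe do not overlap, which choosing probes by the smallest p favours. The Cre-positive values of B3gnt2 lie between 5.51 and 5.58 in log2 signal, while Cre-positive replicate 4 of Sema4b, at 7.38, lies far below the other 3 arrays of its group.

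Without regard to the test, all Cre-positive values lay above all Cre-negative values for 151 probes (1.15%) and below them for 224 (1.71%), 375 in all (2.87%). The two-sided exact permutation p of such a separation is 0.0286, so a share near this would be seen if no probe differed. The count alone therefore does not set these probes apart. Of 2403 genes with several tested probes, 1163 (48.4%) had all probes on the same side of 0, and 7 (0.291%) had an unadjusted p under 0.05 with the same sign at every probe. These were Vamp3, Tspan31, Zdhhc3, Rbak, Rbms2, H3c14 and Tspan17, named after their values were seen. The tetraspanin gene Tspan31 gave 5.85, 6.07, 6.28 and 5.32 on Cre-positive arrays, against 6.53, 6.29, 6.44 and 6.35 on Cre-negative arrays, by probe ILMN_2757599. Its probes stood at -0.52 and -0.52 (limma adjusted p 0.808 and 0.619), both with groups that did not overlap. The palmitoyltransferase gene Zdhhc3 stood at 0.40 and 0.49, and its groups overlapped at both probes. Pphln1, which encodes periphilin, a subunit of the HUSH silencing complex, was picked out in the same way. At 3 of its 4 probes every Cre-positive value lay below every Cre-negative value, with log2 differences of -0.41, -0.42 and -0.46, and the fourth, brighter probe stood at -0.02. None of the Pphln1 probes passed (limma adjusted p of 0.62 or more).

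A probe was detected on all 4 arrays of one group and on none of the other in 13 cases (0.0994%). Of these, 2 were detected in Cre-positive oocytes, namely Tmem177, which encodes a mitochondrial assembly factor, and an unnamed probe. The other 11 were detected in Cre-negative oocytes, namely probes of Ttyh2, Hpd, Slc22a13, Dusp4, Sptlc2, Tor4a, Polq, Zmiz1, Sbno2, Dsg2 and, opposite to its probe named above, Gpr35. Against the detection floor, in Cre-positive oocytes Ttyh2 was at least 1.25-fold lower and Tmem177 at least 1.13-fold higher, and the bounds of the others were smaller. These bounds hold for the offset of 16 only. The second probe of Ttyh2 stood at -0.03, and a brighter Zmiz1 probe, detected on all 8 arrays, at -0.19. None of the 13 passed. Cre-positive replicate 1, with the fewest detected probes, had the highest floor, at 4.53 against 4.35 to 4.37 on the other arrays.

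In the other gene lists no gene passed. The medians of lists with at least 10 tested genes lay between -0.10 (interferon and double-stranded RNA response) and 0.08 (genes beside the Rosa26 locus), where single genes over all those tested had a median of -0.01 and quartiles of -0.09 and 0.08. Over all 9546 tested genes and unnamed probes 4566 stood above 0 and 4980 below. Of 26 genes that the literature lists as miR-15 or miR-16 targets 13 stood above 0 and 13 below. The small GTPase gene Arl2 stood lowest at -0.35 and the beta-secretase gene Bace1 highest at 0.33. On Cre-positive replicate 4 Bace1 had a log2 signal of 5.68, against 4.91 to 5.08 on the other Cre-positive arrays and 4.65 to 5.02 on the Cre-negative arrays. The share of a list with an unadjusted p under 0.05 lay between 0% and 20%, where 4.72% of all tested genes had one. The highest was 2 of 10 genes beside the Rosa26 locus, of which 1 stood below 0 (Brpf1, -0.48) and 1 above (Mtmr14, 0.36). Of 33 meiotic spindle and checkpoint genes 11 stood above 0 and 22 below, with a median of -0.06. Cdc20, the activator of the anaphase-promoting complex, had 4 probes at -0.38, -0.24, -0.16 and -0.04. The spindle-pole gene Numa1 stood at -0.33 and the kinetochore motor gene Cenpe at 0.29. Among 26 p53 and DNA damage genes, which respond to DNA breaks, 19 stood above 0 and 7 below, with a median of 0.08. The checkpoint kinase gene Chek2 stood lowest of the list at -0.23, detected on 2 of 4 Cre-positive and 4 of 4 Cre-negative arrays. Cdkn1a, a p53 target, stood at -0.08 and the DNA ligase gene Lig4 at 0.27. The 3 probes of Rad50, a subunit of the break-sensing MRN complex, stood at 0.30, 0.23 and 0.02. Of 13 interferon and double-stranded RNA response genes 2 stood above 0 and 11 below, with a median of -0.10.

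Ribosomal protein genes (57 tested, median 0.01), mitochondrial respiratory chain genes (76, median 0.01) and proteasome genes (38, median 0.02) had 0 genes that passed. Of 11 genes of embryonic genome activation 0 passed, with Tcstv1, a transcript of early cleavage embryos, at -0.32 and its Cre-positive values below its Cre-negative ones. Of 10 genes beside the Rosa26 locus, where the transgene sits, 0 passed. Setd5 stood at 0.00, Thumpd3 at 0.18, the chromatin reader gene Brpf1 at -0.48 with -0.11 by its other probe, and the phosphatase gene Mtmr14 at 0.36 with 0.03 to 0.18 by its 3 further probes. Around Mt1, Ago2, Vamp3, Plin3 and the Rosa26 locus the 20 nearest tested genes in the RefSeq gene order were also read. None of them passed around any of the 5 loci. Their log2 differences lay between -0.22 and 0.30 around Mt1, -0.29 and 0.14 around Ago2, -0.26 and 0.11 around Vamp3, and -0.31 and 0.20 around Plin3.

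**Figure D4:**
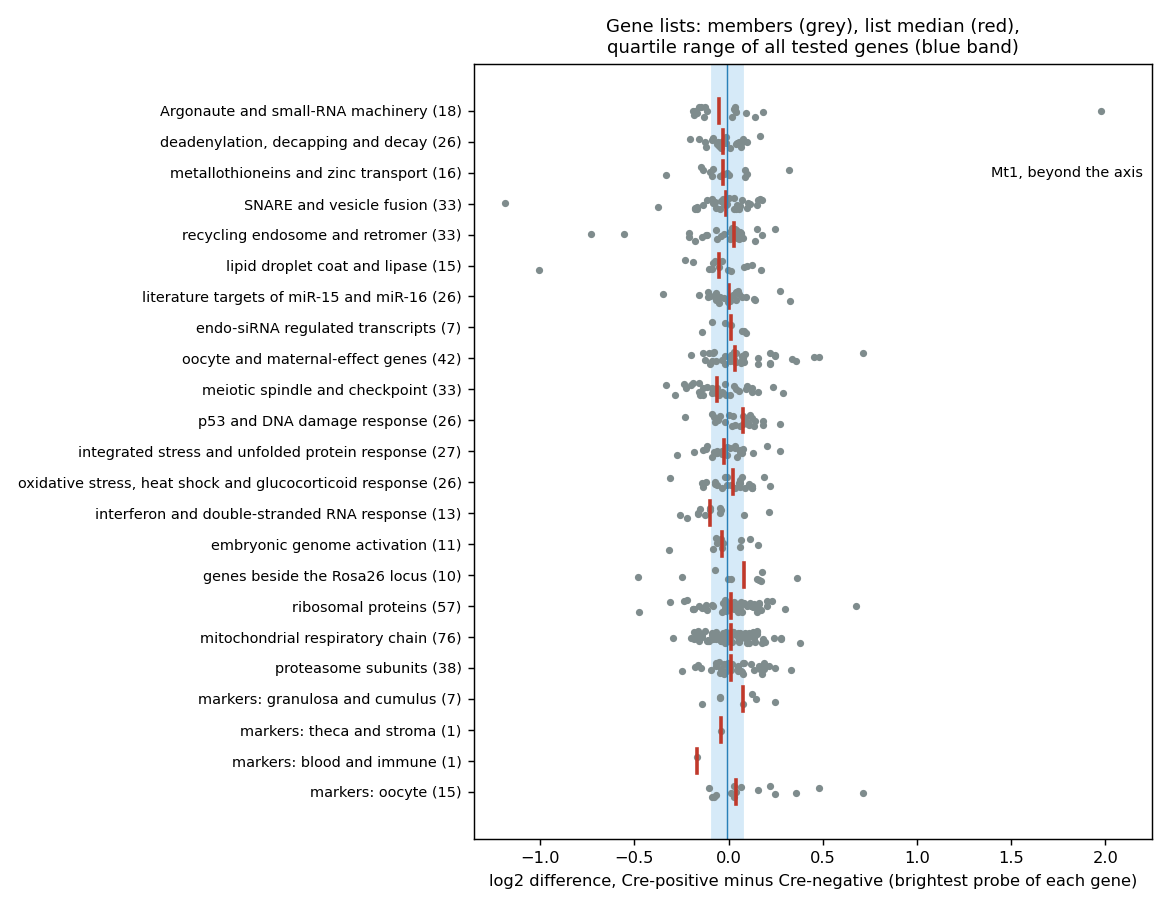
Each grey point is 1 gene by its brightest probe, with its log2 difference, Cre-positive minus Cre-negative, on the x axis and its list on the y axis (number of tested genes in brackets); red bars are list medians and the blue band is the range between the quartiles of all tested genes. Ago2 (1.97), Vamp3 (-1.19) and Plin3 (-1.01) stand off from the other members of their lists, and Mt1 (5.01) lies beyond the axis.

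Among oocyte and maternal-effect genes several members were high on 1 array. Of 42 tested, 30 stood above 0 and 12 below, with a median of 0.03, and 0 passed. Over all 9546 tested genes and unnamed probes 4566 stood above 0 and 4980 below. Nlrp5, which encodes the maternal-effect protein MATER, had the largest difference of the list, 0.71 (limma adjusted p = 0.956). Its log2 signals were 8.84, 8.39, 7.83 and 9.98 on Cre-positive arrays, against 7.92, 8.38, 8.0 and 7.89 on Cre-negative arrays. The zona pellucida gene Zp2 had 7.04, 6.50, 6.18 and 8.39 on Cre-positive arrays, against 6.41, 6.83, 6.31 and 6.64 on Cre-negative arrays. Gdf9, an oocyte growth factor gene, had 10.67, 10.30, 10.15 and 11.20 on Cre-positive arrays, against 10.13, 10.41, 10.32 and 10.48 on Cre-negative arrays. In these 3 genes the groups overlapped, Cre-positive replicate 4 was the highest of the 8 arrays and Cre-positive replicate 1 the next. Without replicate 4 the Nlrp5 difference was 0.30, and without replicates 1 and 4 it was 0.06. A further Nlrp5 probe followed at 0.61, and the last stood at 0.07. Zp3, whose promoter drives Cre, gave 10.08, 10.16, 9.89 and 9.81 on Cre-positive arrays, against 9.81, 10.07, 9.98 and 9.92 on Cre-negative arrays, a log2 difference of 0.04.

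The same contrast was measured on other arrays in oocytes with miR-15a mimic. The 2 sets share no arrays and were normalized separately, so differences within each set are given side by side. With mimic, 16 of 13563 probes (0.118%) passed. The log2 differences of the 5 probes with mimic were 5.63 for Mt1, 2.35 for Ago2, -2.74 and -2.73 for Vamp3 and -1.80 for Plin3. Each had the sign it had without mimic. The arrays with mimic were brighter, with Mtf1 probes at 10.1 to 10.5 there and at 7.87 to 8.49 without mimic. Since background and offset shrink the differences of dim probes, sizes in the 2 sets are not on a like scale. This also holds for the differences between effects given below. Whether brightness accounts for the larger values with mimic was not tested. Since the Mt1 difference without mimic is fitted against a Cre-negative level at or near the floor, no difference between its effects is given. Mt2 with mimic was detected on 2 of 3 Cre-positive and 2 of 3 Cre-negative arrays, at log2 signals of 5.78, 5.36 and 4.88, against 5.04, 4.94 and 5.10, which overlap. The difference between the effects, with mimic minus without, was -1.51 ± 0.28 and -1.54 ± 0.26 (SE) at the Vamp3 probes, with limma adjusted p of 0.111 and 0.104. For Plin3 it was -0.79 ± 0.25 (adjusted p = 0.864). No probe of 12484 passed in this test of the difference (0%), where 583 (4.67%) had an unadjusted p under 0.05.

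Of the 224 probes with lower, non-overlapping groups without mimic, 214 were also tested with mimic. Of these, 146 (68.2%) stood lower with mimic too, where 50.2% of all 12484 probes did. The groups were again lower without overlap for 50, which is 23.4% of the 214, where 6.6% of all 12484 probes were with mimic. These 50 are 6.07% of the 824 such probes with mimic, where 1.71% of all 13080 probes were lower without overlap without mimic. The 50 probes belonged to 46 genes or unnamed probes, since Vamp3, Tspan31 and Pphln1 had several. Besides Vamp3 and Plin3 they included Med18 (-0.62 without mimic and -0.40 with mimic), Tstd2 (-0.57 and -1.03), Deptor (-0.63 and -0.70), Sema4b (-0.61 and -0.74), Rab11b (-0.55 and -1.12) and Rab23 (-0.73 and -1.27). The zinc finger gene Zfp345 stood at -0.40 and -1.33, and Exosc4, a subunit gene of the RNA exosome, at -0.29 and -0.98. The 3 lower Pphln1 probes stood at -1.02, -1.27 and -1.22 with mimic. For 7 of the 214 (3.27%) the groups were apart in the opposite direction with mimic, where 6.3% of all probes were higher without overlap. Cln6 was one of them, at -0.50 without mimic and 0.33 with mimic, where it was detected on 3 of 3 Cre-positive and 0 of 3 Cre-negative arrays. Wdr78 stood at -0.56 and 0.09, and Ptpre at -0.56 and -0.14, both with overlapping groups with mimic.

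On the higher side, 142 of the 151 probes were also tested with mimic. Of these, 88 (62%) stood higher there too, where 49.8% of all did. Groups again apart in the same direction were seen for 10, which is 7.04% of the 142, where 6.3% of all probes were higher without overlap with mimic. These 10 are 1.27% of the 786 such probes with mimic, where 1.15% of all 13080 probes were higher without overlap without mimic. The 10 included Mt1, Ago2 and Tfec (0.47 without mimic and 0.82 with mimic). Groups apart in the opposite direction were seen for 4 (2.82%), where 6.6% of all probes were lower without overlap. B3gnt2 stood at 0.45 and 0.41, with overlapping groups with mimic. Without Cre-positive replicate 4, which leaves 3 against 4 arrays, 61 of 383 lower probes (15.9%) and 18 of 295 higher probes (6.1%) had groups apart in the same direction with mimic. All probes with mimic gave 6.58% and 6.3%. These shares are a description, and the probes of a set are not independent of each other.

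**Figure D5:**
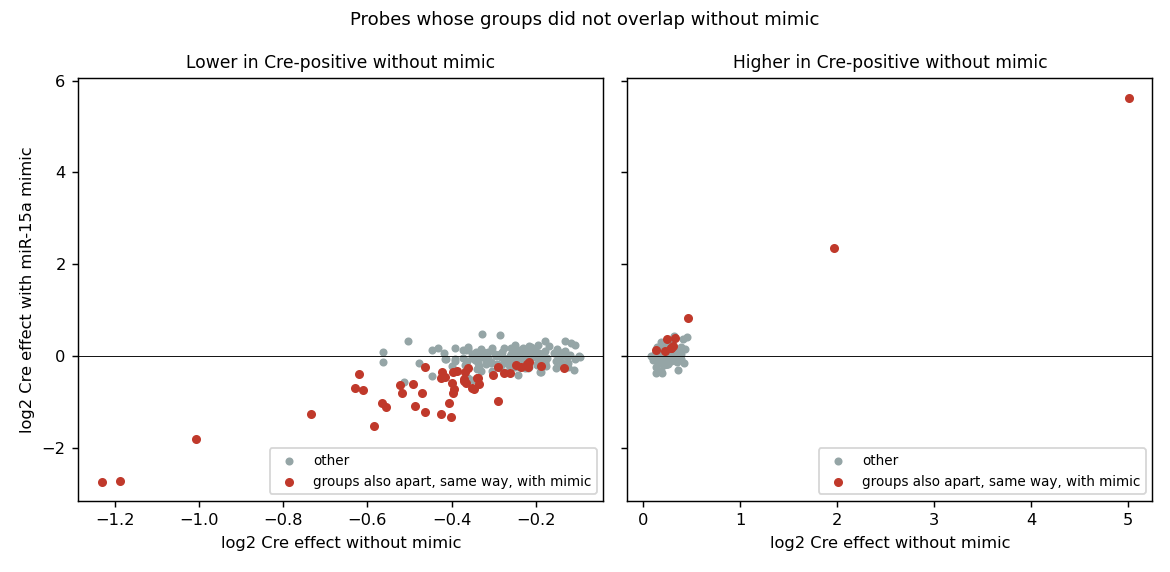
Probes whose groups did not overlap without mimic, lower in Cre-positive oocytes on the left and higher on the right; each point gives the log2 Cre effect without mimic (x axis) and with mimic (y axis), in red where the groups were apart in the same direction with mimic. On the left 50 of 214 points are red and spread down to the Vamp3 probes (-2.74 and -2.73), and on the right 10 of 142 are red, with Mt1 and Ago2 far from the rest.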

How the data were processed

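The isolated RNA (PicoPure) went through Nugen amplification and biotin labelling, per the labels' protocols. The authors deposited raw tables with the signal intensity and detection p-value of every probe on every array, per the file headers. Their deposited normalized tables hold log2 signal without background correction. These values matched log2 raw signal after quantile normalization of each set (largest deviation 4.97e-14), as did the deposited series value table (4.90e-09), whose column medians were 6.38 without and 7.24 with mimic, so it is log2 and not centred. Any scanner step before this is not given in the sources used here.

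Raw intensity was corrected for background by nec (limma 3.58.1, R 4.3.3, offset 16), which takes negative controls from the detection p-values, then log2 transformed and quantile normalized within the set. Background and offset shrink the differences of dim probes. Groups were compared with lmFit and eBayes, two-sided, with Benjamini-Hochberg adjustment over all 13080 probes. The difference between sets was tested as a contrast, with all 14 arrays fitted together, over the 12484 probes that passed in both. For gene lists each gene was taken by its brightest probe. A gene not detected in one group is given as a bound against each array's lowest detected signal after these steps, so the bound depends on the offset. Only the model fit was tested on simulated data. These were made from filtered, normalized signals with independent noise, so the background, filter and normalization steps were not covered.

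Probes were named by the platform annotation, where 23978 had 1 symbol and 1719 did not. Gene identifiers of 23962 matched RefSeq (GRCm38.p6), which changed 0 symbols. Named probes were all that passed, the 8 with the smallest p in each direction among the others with 1 symbol, the member of each list with the smallest p in each direction, the Argonaute, metallothionein, Vamp3, perilipin and Rosa26 neighbour genes, and probes detected in one group only. Further list members were named beside the counts after their values were seen. The members and lists were chosen with earlier results of these data known, and no list was tested as a set. Replicate numbers did not pair the samples (correlations of deviations between -0.0719 and 0.00945). Alternatives were other background, scaling, filter, weighting and model settings, the deposited values, a replicate block and leaving out arrays. Figures were drawn with matplotlib 3.10.9 in Python 3.11.15.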

Additional observations from a re-analysis of the deposited data

Results flagged for a closer look

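For the named probes and the array measures, 172 groups of 4 arrays were checked for an array far from its group, and 16 had one. The rule used is set to mark about 1 in 20 groups by chance, a nominal rate that was not tested here. Among Cre-positive arrays, replicate 1 had 11652 detected probes and lay apart for Tmem177 (log2 signal 4.63) and Brpf1 (4.38). Replicate 2 lay apart for Ccnd3 (4.44) and replicate 3 for Cdc20 (7.13). Replicate 4 lay apart for Sema4b (7.38), Tarbp2 (7.60), Kif4 (7.08) and 1 of 4 Ago3 probes (6.16). Among Cre-negative arrays, replicate 1 lay apart for Pdzd11 (7.07). Replicate 2 lay apart for Deptor (6.90), Clba1 (4.73) and Sbno2 (4.72), and replicate 4 for Hpd (4.71), Wt1 (4.69) and another Ago3 probe (5.81). None of the 5 probes that passed had such an array in either group.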

How the results depend on the processing

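Of the 5 calls, Mt1 was kept wherever it was tested, and Ago2 under every setting run. With detection on all 8 arrays required, or with Cre-positive replicates 1 and 4 left out together, Mt1 did not pass the filter, so 1 probe was called higher. Both Vamp3 probes and Plin3 were lost with an offset of 1 and with no filter on dim probes, which left 2 calls in all and 0 lower. Leaving out Cre-positive replicates 1 and 4, added after seeing the data, lost Plin3 and left 3 calls. Leaving out 1 array at a time gave 4 to 7 calls, of which 2 to 5 were lower. The 5 lower calls came without Cre-positive replicate 3, where Med18 (adjusted p = 0.0281) and an unnamed probe were added. Med18 also passed with trend and robust settings (adjusted p = 0.0182). The difference between sets, with 0 calls, had 4 without background correction, 4 with the deposited tables and 4 with array weights, in each case with both Vamp3 probes among them, and 0 to 6 when 1 array was left out. The 6 came without Cre-positive replicate 3 of the mimic set, and 1 (Kif15) without Cre-negative replicate 4 of the set without mimic. The cause was not tested. Without Cre-positive replicate 4, also added after seeing the data, 314 higher and 397 lower probes had groups that did not overlap, and fewer arrays make this more frequent by construction. Detected probes at a detection p under 0.01 differed by -397.5 (exact permutation p = 0.486), and leaving out 1 array gave differences of -717 to -115. With the replicate number as a block 5 probes were called, 2 higher and 3 lower, and 0 in the difference. Of 1674 values of single probes under alternatives, 19 turned sign, in 7 probes, none of them called. A call was lost in 14 values and gained in 2, and 137 values of probes not called moved by more than the pooled SD of the groups. Many of these probes were named for their values on the same arrays, and some settings give identical values, so few sign turns are no independent support. The number of arrays and signal near background limit what can be seen in dim probes.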
